A study of Mus musculus with 4 samples.

Results

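The osteoclasts of the neonatal mouse tibia were described from single-cell RNA sequencing (scRNAseq). They were chosen as cell barcodes with at least 10 unique molecular identifiers (UMIs) per 10000 of both *Acp5* and *Ctsk*, and under 50 per 10000 of each of the collagen genes *Col1a1* and *Col2a1*. Barcodes also needed at least 1600 detected genes and at most 10% mitochondrial UMIs. The rule found 74 of 8256 kept barcodes (0.896%, exact Clopper-Pearson 95% interval 0.704% to 1.12%), out of 14181 barcodes in the count matrix. The study asked how descendants of hypertrophic chondrocytes become osteoblasts, and these blood-derived cells came along in the same tissue digest. The cells came from the pooled tibiae of 1 male mouse at postnatal day 6, with the secondary ossification centres removed, and the mouse received no treatment. Its genotype was Col10a1Cre;Rosa26-Tdtomato;Irx3 +/Δ;Irx5 +/-, labelled as the heterozygous control, so all cells below come from this 1 genotype. Cre is driven by *Col10a1*, a gene of hypertrophic chondrocytes, and switches on the tdTomato reporter in them and in their descendants, and the conditional *Irx3* allele is lost in the same cells. Osteoclasts arise from blood precursors and not from chondrocytes, so they are not cells in which this Cre is meant to act. The 4 sequencing entries at this age were counted together in 1 matrix and hold 1 library, with no barcode assigned to an entry. There is 1 sample and no other condition, and cells are not replicates, so no test was made, and intervals cover counting error only.

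Osteoclasts are giant, multinucleated cells that form when precursors of the monocyte and macrophage lineage fuse. M-CSF, read by the receptor CSF1R, keeps the precursors alive, and RANKL, read by the receptor RANK (*Tnfrsf11a*), drives them to differentiate through the transcription factor NFATc1. The mature cell seals itself to bone, pumps acid through a vacuolar proton pump to dissolve mineral, and secretes cathepsin K and matrix metalloproteinases to digest the exposed collagen.

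*Acp5* encodes the tartrate-resistant acid phosphatase by which osteoclasts are stained, and *Ctsk* encodes cathepsin K, the collagen-degrading protease of bone resorption. *Acp5* lies on the minus strand at chr9:22126727-22135711 and *Ctsk* on the plus strand at chr3:95499256-95509362 (GRCm38, the assembly named mm10). Their upstream windows of 250 bases, from RefSeq on GRCm38.p6, are shown because both genes chose the cells and both are textbook targets of the factors described below. They are printed 5′ to 3′ on the gene's strand, and distances are counted from the RefSeq start, which for *Ctsk* lies upstream of the start of the gene coordinates given above. *Acp5* has 3 annotated starts, and the window shown is the only 1 of the 3 that held a searched motif. This window lies inside the gene at chr9:22130599-22130848, with 10 of its bases annotated as exon, and a gene named 6530413G14Rik also spans it. The *Ctsk* window at chr3:95498960-95499209 overlapped no annotated exon or gene. Capitals mark the motif matches.
Acp5: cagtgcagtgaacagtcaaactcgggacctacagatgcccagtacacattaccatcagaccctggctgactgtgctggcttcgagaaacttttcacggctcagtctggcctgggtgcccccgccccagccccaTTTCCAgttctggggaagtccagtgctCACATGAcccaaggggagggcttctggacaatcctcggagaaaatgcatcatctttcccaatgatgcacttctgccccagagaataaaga
Ctsk: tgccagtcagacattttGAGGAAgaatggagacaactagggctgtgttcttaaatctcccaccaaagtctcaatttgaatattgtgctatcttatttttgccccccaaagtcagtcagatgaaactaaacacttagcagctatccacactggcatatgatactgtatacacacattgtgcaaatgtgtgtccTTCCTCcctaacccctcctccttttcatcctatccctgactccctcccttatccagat
The motifs searched on both strands were TCANGTG for the MITF and TFE factors, GAGGAA for PU.1, TGANTCA for AP-1 and TGGAAA for NFAT. The *Acp5* window held the MITF motif 90 bases and the NFAT motif 117 bases before the start, both on the other strand. The *Ctsk* window held the PU.1 motif 233 bases before the start and again, on the other strand, 58 bases before it. Among 32851 windows of this length, 12.2% held the MITF motif, 23.3% the PU.1 motif, 6.75% the AP-1 motif and 18.6% the NFAT motif, so such matches are common and describe letters only.

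Within the 74 osteoclasts the median level was 47.1 UMIs per 10000 for *Acp5* (highest 124) and 44.0 for *Ctsk* (highest 142), values that the rule itself selected. The osteoclasts nearest to the *Acp5* minimum held 16.3, 16.3 and 17.1, and only 2 barcodes failed by this gene alone, at 3.87 and 0.453. For *Ctsk* the lowest osteoclasts held 10.6, 10.6 and 10.7, and 75 barcodes that met the *Acp5* minimum missed it, the nearest at 9.23, 8.20 and 7.11. The *Ctsk* minimum thus met a continuum of barcodes, while the *Acp5* minimum fell in a gap. Another 15 barcodes met every limit except that on mitochondrial UMIs, the nearest at 10.1%, 10.9% and 11.1%. Just inside the limit the osteoclasts reached 8.93%, 9.40% and 9.44%. The collagen limits and the minimum of genes removed no barcode that met all the other limits.

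**Figure D1:**
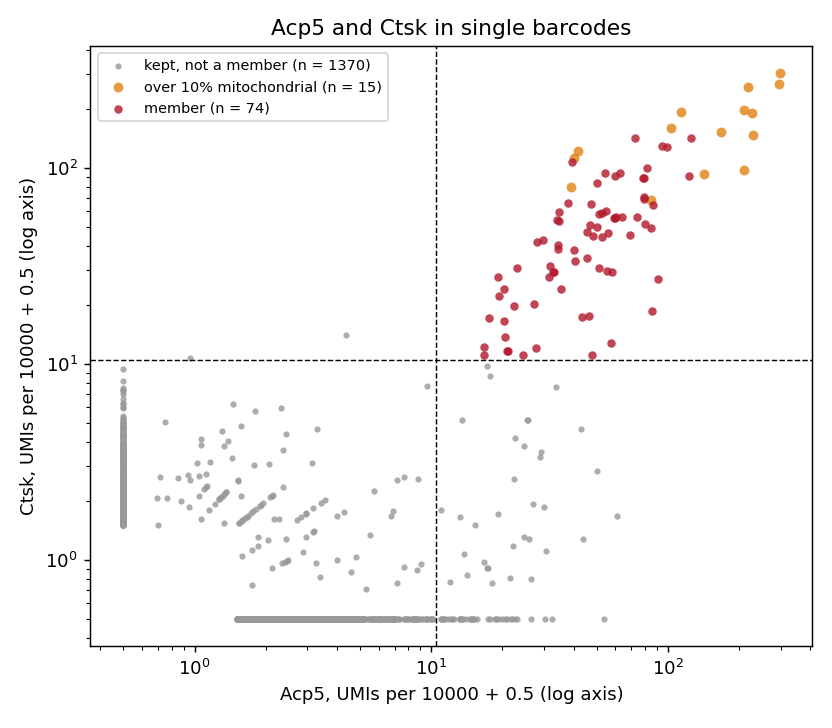
Each point is a barcode, placed by its *Acp5* level (x axis) and *Ctsk* level (y axis) in UMIs per 10000 plus 0.5, both on log axes, with dashed lines at the minimum of 10 for each gene. The 74 osteoclasts (red) and the 15 barcodes over the mitochondrial limit (orange) stand in the upper right corner, and grey points are the 1370 other kept barcodes with both collagens under 50 and at least 1 UMI per 10000 of either gene.

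The osteoclast barcodes were deep. The lowest held 17199 UMIs, the median was 27649 and the highest 49825, and the number of detected genes ranged from 3466 to 6779 (median 4771.5). All other kept barcodes had a median of 13848 UMIs. Relatives of the osteoclasts in the same library serve below as comparison groups, named here by their rule genes. The C1q macrophages were 200 barcodes with at least 5 UMIs per 10000 of both *C1qa* and *C1qb*, complement genes of tissue macrophages, and had a median of 14587.5 UMIs. The monocytes were 265 barcodes with at least 5 of *Ly6c2*, at least 1 of *Ccr2* and under 5 of *C1qa*, and had a median of 9665 UMIs. Both groups were held under 10 UMIs per 10000 of *Acp5* and of *Ctsk*, so differences in these genes were set by the rule. Barcodes with more of either gene were thus kept out of both groups. Ratios of other genes that go with *Acp5* or *Ctsk* were therefore in part shaped by the rule. B cells (736 barcodes) had at least 5 of *Cd79a*, and erythroid cells (564 barcodes) had at least 500 of the haemoglobin gene *Hbb-bs*. Of the erythroid barcodes, 3 were also among the 74. B cells and erythroid cells serve as a guide to free RNA only for genes that they do not express themselves.

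Some osteoclast barcodes also held genes of other cells, and this bears on everything that follows. Haemoglobin genes reached 100 UMIs per 10000 in 5 of the 74 barcodes, which carried 96.5% of the 18640 haemoglobin UMIs of the whole group. The highest of them held 1382, while the highest barcode under this limit held 17.4. Neutrophil granule genes reached 20 per 10000 in 3 barcodes (85.9% of such UMIs). *Cxcl12*, the chemokine of marrow stroma, reached 5 in 3 barcodes (99.7% of 341 UMIs). C1q genes reached 5 in 3 barcodes (75.5% of such UMIs) and B cell genes in 2 (81.5%). *Col2a1* reached 20 in 1 barcode, which held 28.1% of its 758 UMIs, so most of these lay in other barcodes. Together 15 barcodes met at least 1 of these limits, which were set after the values had been seen, and 59 met none. Low levels of such genes remained in the 59, and each of them held a UMI of *Col2a1* and of *Hbb-bs*. The 15 mixed barcodes had a median of 35502 UMIs, against 26847 in the other 59. Scrublet, a doublet caller, marked 588 barcodes of the library and none of the 74. Whether the mixed barcodes were doublets, cells stuck together or engulfed material was not tested, and values without them are given beside results below.

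Most osteoclast markers beyond *Acp5* and *Ctsk* were present in the group. Of 12 further osteoclast markers (*Mmp9*, *Atp6v0d2*, *Dcstamp*, *Ocstamp*, *Nfatc1*, *Calcr*, *Itgb3*, *Oscar*, *Tnfrsf11a*, *Car2*, *Tcirg1* and *Clcn7*), 11 had a UMI in the group and 10 reached 20 CPM (UMIs of the gene per 1000000 UMIs summed over the group). 7 of the 12 were at least 2-fold higher than in the C1q macrophages and 10 were at least 2-fold higher than in monocytes. *Calcr*, the calcitonin receptor of mature osteoclasts, was at 0 UMIs, which allows up to 1.42 CPM. The immunoreceptor gene *Oscar* was at 9.91 CPM. *Siglec15*, a fusion-related lectin gene that is not among the 12, was at 2.36 CPM (5 UMIs). Whether the barcodes hold mature osteoclasts or their precursors was not tested. The 10 osteoblast markers summed to 406 CPM in osteoclasts against 17272 in all other kept barcodes, with *Col1a1* the most abundant (131 CPM) and *Sp7* at 0 UMIs, and the 8 chondrocyte markers summed to 665 against 27202 CPM, with *Col2a1* the most abundant (358 CPM).

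Across all genes, a gene was compared when it reached 20 CPM in either group, and ratios are log2 of CPM with 10 CPM added. Against C1q macrophages, 6247 genes were compared, of which 333 were at least 2-fold higher in osteoclasts (5.33%) and 712 at least 2-fold lower (11.4%). Against monocytes, 717 of 6194 genes were higher (11.6%) and 837 lower (13.5%). Against all other kept barcodes, 668 of 6604 genes were higher (10.1%) and 1054 lower (16%). These shares stand beside the counts of each gene list below, and because the cells were chosen by expression in the same barcodes they are a description only.

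*Mmp9*, the gelatinase B gene on chromosome 2 (chr2:164940780-164955850), had the highest ratio over macrophages of all genes outside the rule. It stood at 2537 CPM in the osteoclasts (95% Poisson interval 2470 to 2606), at 29.8 in the macrophages and at 14.1 in the monocytes, a log2 ratio of 6.0 over the former and 6.73 over the latter. Among single osteoclasts it ranged from 0 to 99.4 UMIs per 10000 with a median of 16.3, and 71 of 74 had at least 1 UMI. The spread was therefore wide, and 3 osteoclasts had none. At a fixed depth of 5000 UMIs per barcode, 89.2% of the osteoclasts had an *Mmp9* UMI, against 6.57% of macrophages and 4.23% of monocytes. B cells, which should lack the gene, gave 4.16% (median depth before thinning 8443 UMIs, against 27649 in the osteoclasts), so the low shares of the other groups were near background.

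Outside the rule genes, *Mmp9* was the only matrix-degrading enzyme at least 2-fold higher than in macrophages. Of the 16 compared, 3 were higher, including *Acp5* and *Ctsk*, which the rule fixed, 7 were at least 2-fold lower, and the median log2 ratio was -0.79 (all genes: -0.02). The lower ones were mostly general lysosomal proteases. *Ctsb* stood at 576 CPM in osteoclasts and 2586 in macrophages, *Ctsd* at 417 and 1545, *Ctss* at 203 and 1084, and *Lgmn*, the legumain gene, at 120 and 1408. *Mmp14*, the membrane-anchored collagenase gene, was close to the macrophage level (238 and 181 CPM, log2 ratio 0.38) but far above that of monocytes, which held 4.59 CPM. *Mmp13*, a collagenase gene of hypertrophic chondrocytes and osteoblasts, rested on few barcodes. It was at 83.5 CPM in all 74 osteoclasts and at 7.52 CPM in the 59 left without the mixed barcodes, against 90.1 in macrophages. Of the enzyme inhibitors, 1 of 8 compared was higher, *Cst7* (26.0 CPM against 7.76), and 2 were lower, while without the mixed barcodes none was higher and 4 were lower, with *Cst7* at a log2 ratio of 0.90. Against monocytes, 4 of 7 inhibitors compared were higher and none lower. *Cstb*, the cystatin B gene that restrains cathepsins inside the cell, was abundant at 1777 CPM but also high in macrophages at 1388, while monocytes held 327.

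The vacuolar proton pump, whose subunits form a membrane-embedded V0 ring and a cytosolic V1 motor, had the most genes above the macrophages of the 13 role lists. Of 17 subunit genes compared, 9 were at least 2-fold higher and 1 was lower, with a median log2 ratio of 1.13. Against monocytes, 13 of 15 were higher and none lower, with a median of 1.86 (all genes: 0.06). The count against macrophages was 10 of 17 without the mixed barcodes. The summed level of the 25 listed genes was 9318 CPM in osteoclasts, 3856 in macrophages and 2516 in monocytes. Abundant subunits such as *Atp6v0b* (1463 CPM, log2 ratio over macrophages 1.14), *Atp6v1g1* (1369, 1.59) and *Atp6v0e* (1220.1, 1.51) differed to a like degree.

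The subunit with the greatest difference was *Atp6v0d2*, the d2 isoform of V0 found in osteoclasts and needed for their fusion (chr4:19876841-19922605). Every osteoclast had it, from 1.16 to 18.2 UMIs per 10000 with a median of 6.17. It stood at 696 CPM (661 to 732) in osteoclasts, 14.9 in macrophages and 0 in monocytes, at least 759-fold higher than the 3 UMIs over the whole group that a count of 0 allows there. The common isoform gene *Atp6v0d1* was not higher, at 117 CPM against 177 in macrophages. *Atp6v0d2* thus made up 85.6% of d-isoform UMIs in osteoclasts (83.9% to 87.3%), 7.78% in macrophages and 0% in monocytes. UMIs are not scaled by transcript length, so this is a share of counted molecules.

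The large a subunit differed less between the groups. *Tcirg1*, the a3 isoform whose loss causes osteopetrosis, was at 416 CPM in osteoclasts, 205 in macrophages and 96.0 in monocytes (log2 ratios 0.99 and 2.01). The a1 isoform gene *Atp6v0a1* was the pump gene that was lower, at 6.61 CPM (3.13 without the mixed barcodes) against 44.4 in macrophages. *Tcirg1* made up 98.4% of *Tcirg1* and *Atp6v0a1* UMIs in osteoclasts (97.4% to 99.1%), 82.2% in macrophages and 91.5% in monocytes, so it was the main isoform in all 3. In V1, the B2 isoform gene *Atp6v1b2* was at 698 CPM against 208 (log2 ratio 1.70), and the kidney isoform genes *Atp6v1b1* and *Atp6v0a4* had no UMI. *Atp6v0c* was at 5.66 CPM in osteoclasts. It is part of the summed level above and was not read further. Whether reads shared with copies of the gene affect its count was not tested.

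**Figure D2:**
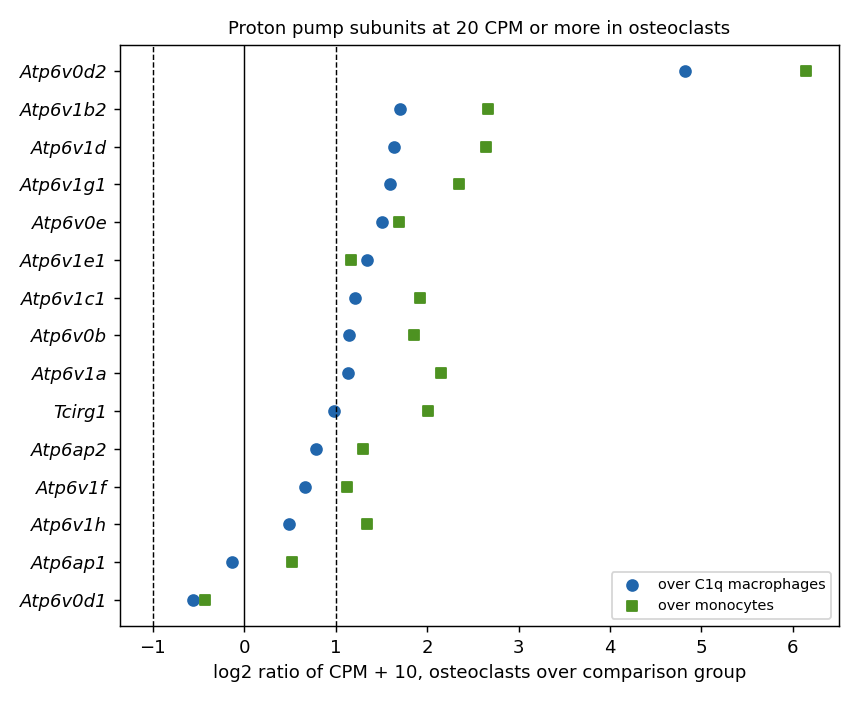
The log2 ratio of CPM plus 10 in osteoclasts over C1q macrophages (circles) and over monocytes (squares), x axis, for each proton pump subunit gene at 20 CPM or more in the osteoclasts, y axis, with dashed lines at a 2-fold difference either way. *Atp6v0d2* stands apart at 4.82 and 6.14, most subunits lie above 1, and *Atp6v0d1* lies below 0 in both comparisons.

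Genes that work beside the pump included the exchangers of the resorbing cell. *Slc4a2* encodes the chloride and bicarbonate exchanger that balances the pump, and was at 187 CPM in osteoclasts against 22.4 in macrophages (log2 ratio 2.61). *Clcn7* encodes the chloride transporter of the ruffled border, and was near the macrophage level at 74.1 and 53.7 CPM. *Car2*, the carbonic anhydrase II gene that supplies the protons, was at 275 against 75.2 CPM (1.74), but erythroid barcodes held 3300 CPM of it, and without the mixed barcodes it was at 190 CPM (1.23). Of the 12 genes compared on this list, 5 were higher and 2 were lower. Those that were lower were *Lamp1* (197 and 1140 CPM) and *Lamp2*, the main lysosomal membrane genes. *Snx10*, a sorting nexin gene mutated in osteopetrosis, was at 242 against 61.2 CPM, and *Plekhm1*, needed for lysosome transport, at 44.8 against 15.2. Against monocytes, *Snx10* was within 2-fold.

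*Slc9b2*, a sodium and proton exchanger gene known from osteoclasts (chr3:135307700-135345387), was at 173 CPM in osteoclasts and had no UMI in either macrophages or monocytes. Its level was at least 185-fold that of the macrophages and at least 188-fold that of the monocytes, taking 3 UMIs over each group as the limit. Single osteoclasts ranged from 0 to 7.40 UMIs per 10000 (median 1.08), and 66 of 74 had a UMI. The gene next to it, *Bdh2*, an oxidoreductase gene on the same strand that ends 3273 bases before *Slc9b2* begins, was also among the 10 leading genes, at 145 CPM against 3.11 in macrophages and 0.306 in monocytes. Levels of these neighbours varied together only loosely among single osteoclasts (Spearman correlation 0.38 over 74 barcodes of 1 library, where both are sparse).

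Most receptor and adaptor genes of differentiation were within 2-fold of macrophages, and the rest of those compared were lower. Of 14 such genes compared, none was at least 2-fold higher and 4 were lower, with a median log2 ratio of -0.58. Against all other kept barcodes, 8 of 15 were higher and 1 was lower, with a median of 1.11. *Tnfrsf11a*, encoding RANK, was at 111 CPM (97.2 to 126) in osteoclasts, 53.4 in macrophages and 4.59 in monocytes, with a log2 ratio over macrophages of 0.93 with 10 CPM added and of 1.01 when the mixed barcodes were also left out. *Csf1r* ran the other way, at 318, 508 and 202 CPM, and every osteoclast had a UMI of it. *Trem2* and *Fcer1g*, which carry the costimulatory signal, were lower than in macrophages (94.9 against 273 CPM, and 689 against 2009). *Cx3cr1*, the fractalkine receptor of precursors, had no UMI in osteoclasts and was at 153 CPM in macrophages, at least 108-fold higher there.

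Among 22 transcription factor genes compared, 6 were higher than in macrophages and 3 were lower (median log2 ratio -0.34). *Nfatc1*, the master regulator of the osteoclast programme, was at 370 CPM (344 to 396) in osteoclasts, 32.9 in macrophages and 13.5 in monocytes, with log2 ratios of 3.14 and 4.02. Single osteoclasts ranged from 0 to 10.1 UMIs per 10000 (median 3.36), and 72 of 74 had a UMI. At 5000 UMIs, 74.3% of osteoclasts had an *Nfatc1* UMI, against 13.6% of macrophages, 6.54% of monocytes and 15.1% of B cells. B cells held *Nfatc1* at 37.6 CPM, above the macrophages, so they were not read as background for it. *Jdp2*, an AP-1 repressor gene, was the most abundant of the list at 767 CPM against 144 (2.34), with a single-cell range of 0 to 22.4 and a median of 7.21. *Mitf* was at 59.0 against 22.1 CPM, *Fosl2* at 180 against 66.2, *Prdm1*, which encodes the repressor BLIMP1, at 77.9 against 24.9, and *Ppargc1b*, a coactivator gene of mitochondrial biogenesis, at 61.4 against 2.48. *Spi1*, encoding PU.1, was expressed in all 3 groups at 724.5, 462 and 256 CPM. *Fos*, which osteoclasts need to form, was equal at 166 CPM in osteoclasts and macrophages. *Fosl2* and *Prdm1* were within 2-fold of monocytes, but without the mixed barcodes *Prdm1* was at least 2-fold higher than in monocytes.

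Brakes on differentiation were mostly below or near the levels of macrophages and monocytes. Of 11 genes compared with macrophages, none was higher and 5 were lower, with a median log2 ratio of -0.85, and against monocytes 7 of 12 were lower (-1.50). Against all other kept barcodes, 2 of 11 were higher, *Nfkbie* and *Pirb*, and 4 were lower, with a median of 0.63. *Irf8* was at 9.44 CPM in osteoclasts (12 of 74 barcodes with a UMI), 238 in macrophages and 78.9 in monocytes. *Irf8* is a target of BLIMP1, and it and *Prdm1* stood in opposite order across osteoclasts and macrophages. Whether their levels are linked in these cells was not tested. *Id2* was lower to a lesser degree (349 against 786 CPM). *Bcl6* was at 6.14 CPM in osteoclasts, 19.9 in macrophages, where it missed the minimum for comparison, and 60.2 in monocytes.

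**Figure D3:**
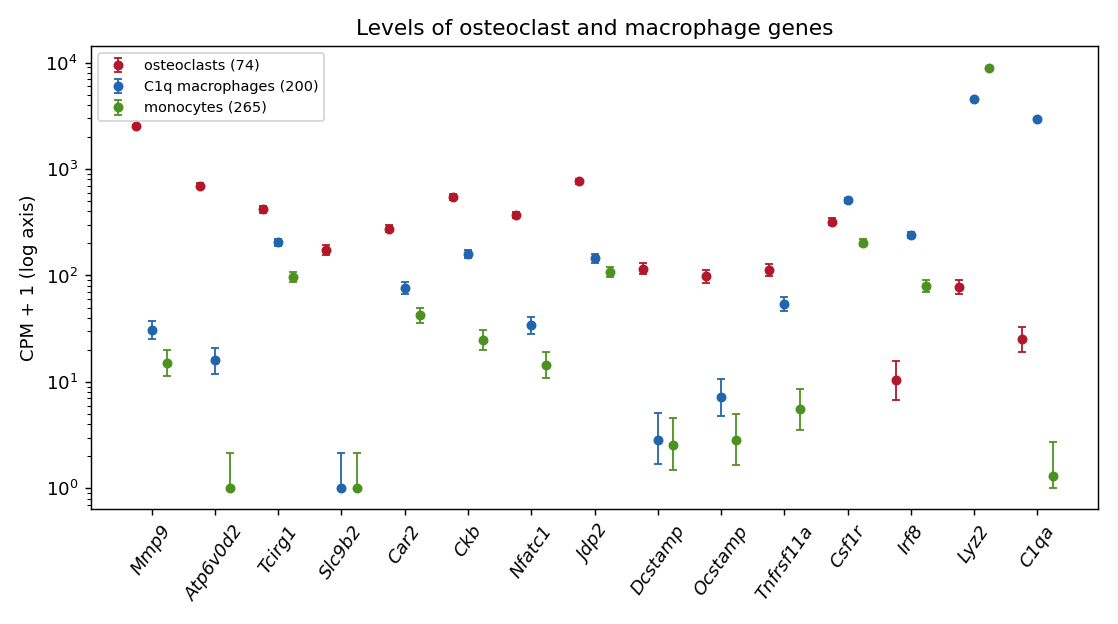
Levels of 15 genes in CPM plus 1 (y axis, log scale) in the 74 osteoclasts (red), 200 C1q macrophages (blue) and 265 monocytes (green), with points for the summed level and bars for the 95% Poisson interval, which covers counting error only. *Mmp9*, *Atp6v0d2*, *Slc9b2*, *Nfatc1*, *Dcstamp* and *Ocstamp* stand at 97.2 CPM or more in osteoclasts and at 32.9 CPM or less in the others, while *Irf8* and *Lyz2* are lower in osteoclasts than in either other group.

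Fusion genes went both ways, with 5 higher and 5 lower of 16 compared and a median log2 ratio of 0.02. The fusion proteins themselves were among those higher. *Dcstamp*, whose product DC-STAMP is required for osteoclasts to become multinucleated, was at 115 CPM (101 to 131) against 1.86 in macrophages and 1.53 in monocytes, and 52 of 74 osteoclasts had a UMI. *Ocstamp*, its partner, was at 97.2 CPM against 6.21 and 1.83, with 51 osteoclasts positive. At 5000 UMIs, 36.5% of osteoclasts had a *Dcstamp* UMI and 31.1% an *Ocstamp* UMI, so these genes sat near the detection limit of single barcodes. The lower ones were general surface proteins of the lineage, *Cd81*, *Cd47*, *Cd53*, *Sirpa* and *Adam9*.

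Attachment to bone uses podosomes, actin-rich feet that carry the αvβ3 integrin and signal through the kinase SRC. Of 29 such genes compared, 6 were higher and 2 were lower, around a median of -0.02. *Itgav*, the αv chain, was at 448 CPM in osteoclasts, 163 in macrophages and 23.5 in monocytes. *Itgb3*, the β3 chain, was far scarcer at 26.4 CPM against 1.86 in macrophages, and only 24 of 74 osteoclasts had a UMI. In the 17 osteoclasts left at a limit of 5% mitochondrial UMIs its log2 ratio over macrophages was -0.36. *Src* was at 115 against 19.3 CPM, the cortactin gene *Cttn* at 31.6 against 3.42, the myosin gene *Myo1d* at 70.8 against 1.86 and *Rac2* at 487 against 224. The chain *Itgb5*, which pairs with αv in precursors, was lower (log2 ratio -2.40). *Rac2* was within 2-fold of monocytes. *Pstpip1*, an actin-scaffold gene not on the list, ranked among the 10 leading genes at 444 CPM against 23.9 in macrophages and 87.7 in monocytes, and 73 of 74 osteoclasts had it.

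Of 14 signal genes compared, 3 were higher and 7 lower than in macrophages (median log2 ratio -1.0). Against monocytes, 7 of 14 were higher, and 4 were lower (median 0.91). Of those 7, *Igf1* and *Cxcl12* rested on the mixed barcodes (*Igf1* at 43.0 CPM in all 74 and 2.51 CPM without them), and 5 of 12 were higher without them, *Spp1* among them. *Ccl9*, a chemokine gene of osteoclasts, was at 1009 CPM against 178, was found in every osteoclast and ranged from 2.33 to 52.4 UMIs per 10000 (median 7.16). *Lif* was at 23.6 against 3.73 CPM. *Cxcl12* also counted as higher at 161 CPM, but its UMIs came from 4 barcodes, and without the mixed barcodes it was at 0.626 CPM with a log2 ratio of -1.19. *Spp1*, the osteopontin gene, was lower than in macrophages at 378 against 1724 CPM, and *Tgfb1* at 39.7 against 339. *Sema4d* (108 CPM) and *Pdgfb* (105 CPM), which signal to osteoblasts and vessels, were within 2-fold of macrophages. *Pdgfb* was all but absent from monocytes at 0.306 CPM.

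Genes of energy and iron use were higher in part. Of 17 energy and iron genes compared, 5 were higher and 2 lower (median 0.74). *Ckb*, the brain-type creatine kinase gene that buffers ATP in osteoclasts, was at 547 CPM against 160 in macrophages and 23.8 in monocytes. *Tfrc*, the transferrin receptor gene for iron uptake, was at 239 against 57.8 CPM, and the iron exporter gene *Slc40a1* at 2.83 against 130. Hexokinase genes *Hk1* and *Hk2* were above 2-fold, and the glycolysis genes *Pgk1* (log2 ratio 1.0, just under 2-fold) and *Ldha* (0.95) below it. Without the mixed barcodes *Hk2* fell under 2-fold (log2 ratio 0.98), while *Pgk1* (1.14) and the metallothionein gene *Mt1* (1.04) passed it. *Hk1* was within 2-fold of monocytes. A wider set was taken by name after earlier values were known, the nuclear genes of the oxidative phosphorylation chain. All 74 of its compared genes had a log2 ratio above 0 over macrophages, 35 were at least 2-fold higher and none was 2-fold lower, with a median of 0.97. Against monocytes 27 of 75 genes were higher and 1 was lower. Against all other kept barcodes 46 of 77 genes were higher and 3 were lower. Summed over 84 genes, they made up 44890 CPM in osteoclasts, 22929 in macrophages, 23594 in monocytes, 22647 in B cells and 16916 in erythroid cells. Their per-barcode sum ran from 298 to 678 UMIs per 10000 in osteoclasts (median 456) and from 86.8 to 333 in macrophages (median 225), so the ranges overlapped only between 298 and 333.

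The leading genes of the whole table also held *S100a4*, *Kbtbd11* and *Nudt22*, which are on none of the role lists used here. *S100a4*, a calcium-binding protein gene, was the most abundant at 4076 CPM, against 471 in macrophages and 800.3 in monocytes, and the lowest osteoclast held 10.7 UMIs per 10000 (median 41.1, highest 142). At 5000 UMIs it was found in 100% of osteoclasts, 85.4% of monocytes, 45.5% of macrophages and 4.83% of B cells. *Kbtbd11* was at 102 CPM against 0.932 in macrophages (3 UMIs), and *Nudt22*, a hydrolase gene, at 113 against 4.35. Against monocytes the 10 leading genes also held *Cd63* (973 and 32.4 CPM), *Nrp2* (627 and 24.8) and the creatine transporter gene *Slc6a8* (171 and 0.917), while macrophages held *Cd63* at 1071 CPM. *Slc37a2*, a phosphate-linked sugar transporter gene, was at 302 CPM against 67.7 in macrophages and 7.95 in monocytes.

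Most macrophage and monocyte markers were below the levels of the cells they mark. Of 14 macrophage markers compared, 13 were at least 2-fold lower in osteoclasts than in macrophages (median log2 ratio -4.15), with *Cd163* at 0 and *Apoe* the most abundant at 683 CPM. Against monocytes, 6 of 9 macrophage markers compared were at least 2-fold higher in osteoclasts (*C1qa*, *C1qb*, *C1qc*, *Cd68*, *Ms4a7* and *Pf4*), 2 were lower, and the median log2 ratio was 1.73. The 3 C1q genes lost this call without the mixed barcodes, which left 3 of 6 markers compared higher and 2 lower. *C1qa* and *C1qb*, which define the macrophage group, were at 24.1 and 43.0 CPM against 2935 and 2827, and at 1.88 and 16.9 CPM without the mixed barcodes. *Lyz2*, the lysozyme gene of the myeloid line, was at 76.9 CPM (21.3 without the mixed barcodes) against 4560 in macrophages and 8992 in monocytes, and at 5000 UMIs it was found in 14.9% of osteoclasts, close to the 11.1% of B cells and 11.9% of erythroid cells. The class II genes *H2-Aa* and *H2-Eb1* were at 13.2 and 16.1 CPM against 664 and 497. *Adgre1*, which encodes F4/80, was at 3.78 CPM (0.626 without the mixed barcodes) against 346, *Tlr2* at 6.14 against 345, *Aif1* at 20.8 against 735 and *Pf4* at 39.7 against 999.7. Among genes of inflammation, *Il1b* was at 11.3 CPM in osteoclasts and 3738 in monocytes, and *Cd14* at 8.97 and 2227. Erythroid markers summed to 8913 CPM in all osteoclasts and 361 CPM without the mixed barcodes, neutrophil markers to 852 and 143, and B cell markers to 129 and 37.0. Of 9 monocyte markers compared with monocytes, 8 were lower, among them *Ly6c2* and *Ccr2*, which chose the monocytes. Of 9 compared with macrophages, 7 were lower. Only *S100a4*, which made up most of their 4219 CPM, was higher in either comparison. The 4 dendritic cell markers compared and the 2 endothelial markers compared were all lower (sums of 147 and 19.8 CPM). T or natural killer cell markers summed to 4.72 CPM and pericyte or smooth muscle markers to 6.14 CPM, and none of them reached 20 CPM. Marrow stroma markers summed to 468 CPM, mostly *Lpl* (275 CPM, against 306 in macrophages), with *Adipoq* at 0.

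**Figure D4:**
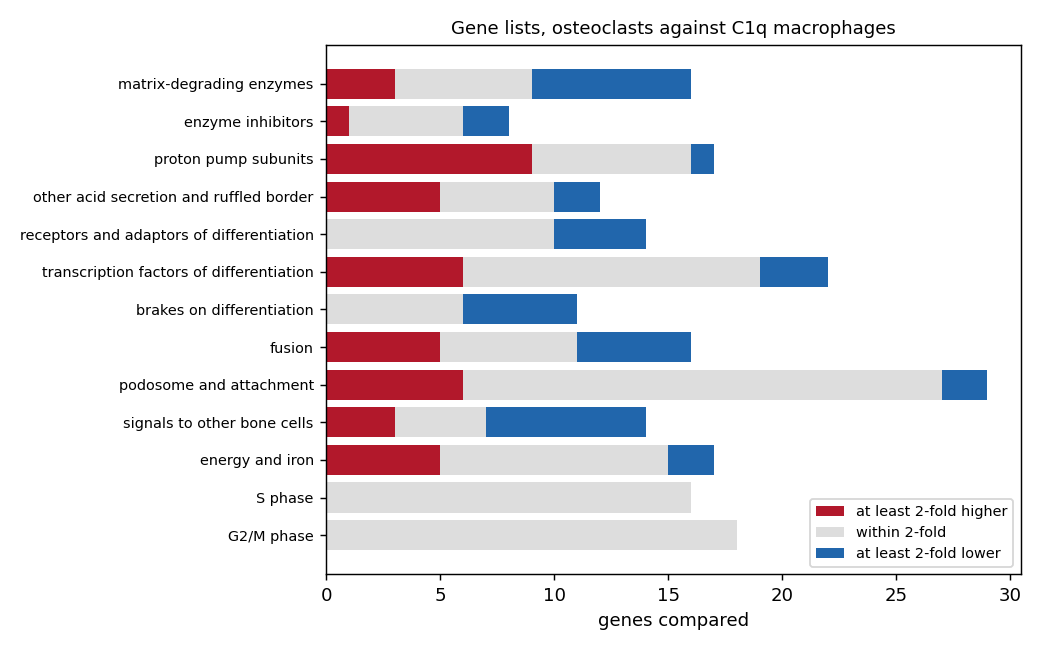
For each of the 13 gene lists (y axis), the number of genes compared with C1q macrophages (x axis) that were at least 2-fold higher in osteoclasts (red), within 2-fold (grey) or at least 2-fold lower (blue). The proton pump bar is red for 9 of 17 genes, the brakes on differentiation show no red, and both cell-cycle lists are wholly grey.

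Against monocytes, 6 of 17 matrix-degrading enzymes compared were higher and 5 lower (the higher ones include *Acp5* and *Ctsk*, which the rule fixed, and *Mmp13*, which was not compared without the mixed barcodes), 7 of 13 other acid secretion genes were higher and 3 lower, and 1 of 13 receptor and adaptor genes was higher and 3 lower. Transcription factor genes divided evenly there, with 6 of 22 higher and 6 lower. Of the rest, 5 of 16 fusion genes were higher and 3 lower, 9 of 27 podosome genes were higher and 4 lower, and 7 of 16 energy and iron genes were higher and 1 lower. 2 of 16 S-phase genes, *Cdc45* and *Slbp*, and 2 of 18 G2/M genes, *Aurkb* and *Kif11*, were lower, and none was higher. Without the mixed barcodes, the pump, acid secretion, receptor, fusion and podosome counts against monocytes were the same. There, 5 of 16 enzymes were higher and 5 lower, 3 of 5 inhibitors were higher, 7 of 22 transcription factor genes were higher and 8 lower, 6 of 12 brakes were lower, 6 of 16 energy and iron genes were higher, and 4 S-phase and 4 G2/M genes were lower.

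With the 15 mixed barcodes left out, the role lists kept their counts against macrophages except for those given above for the pump, the receptors, the inhibitors and below for the S phase, and for these: 8 in place of 7 matrix-degrading enzymes and 4 in place of 3 transcription factor genes were lower, 6 in place of 5 energy and iron genes were higher, and 2 in place of 3 signal genes were higher. Of the marker lists, 7 in place of 0 erythroid, 7 in place of 5 B cell and 5 in place of 3 osteoblast genes were lower, and the stroma list lost its higher gene, *Cxcl12*.

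The osteoclasts differed among themselves along *Ctsk*. Ranked by *Ctsk* and parted into groups of 25, 25 and 24, the low group spanned 10.6 to 29.0 UMIs per 10000, the middle group 29.4 to 55.3 and the high group 55.6 to 142, with no gap between them, so these are ranges and not types. Depth was alike, at median UMIs of 27750, 28747 and 24970.5, while the median mitochondrial share was 5.28%, 6.19% and 7.29%. *Mmp9* was at 888, 2524 and 4359 CPM from the low to the high group, *Atp6v0d2* at 452, 673 and 988, *Slc9b2* at 79.6, 146 and 306, and *Dcstamp* at 60.0, 102 and 191. These 4 genes stood in the same order as *Ctsk*, but most genes of their lists were within 2-fold between the high and low groups: 1 of 13 matrix-degrading enzymes compared was higher and 3 were lower, 4 of 15 pump genes were higher and none lower, 3 of 13 other acid secretion genes were higher and none lower, and 4 of 16 fusion genes were higher and 1 lower. *Ckb* was at 209, 435 and 1045 CPM and *Snx10* at 75.4, 159 and 520. In contrast, *S100a4* (3841, 4274 and 4105 CPM) and *Jdp2* (726, 759 and 822) were at nearly the same level throughout.

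Several scarce genes were found mainly in the high group. *Mt3*, a metallothionein gene, was at 1.40, 2.67 and 116 CPM, in 13 osteoclasts in all. *Itgb3* was at 6.98, 8.01 and 68.9, the receptor kinase gene *Mst1r* at 6.98, 21.4 and 112, and *Myo1d* at 16.8, 56.1 and 147. Of 5880 genes compared between the high and low groups, 133 were at least 2-fold higher (2.26%) and 357 lower (6.07%). Markers of other cells moved with this split as well. Of those compared, 5 of 8 macrophage, 5 of 7 neutrophil, 3 of 4 B cell and 3 of 5 stroma markers were lower in the high group, and 3 of 7 erythroid markers were higher. The leading lower genes were the neutrophil genes *Camp* (272 CPM in the low and 4.59 in the high group) and *Ngp* (176 and 10.7), *Lyz2* (131 and 12.2) and *Igf1* (112 and 9.18), and the part of these cells in the split was not tested. With the 15 mixed barcodes left out and the groups formed anew (20, 20 and 19), *Mmp9* was at 983, 2974 and 4138 CPM, *Mt3* at 0, 1.76 and 99.7 and *Itgb3* at 7.59, 8.80 and 59.8, so the order held there.

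**Figure D5:**
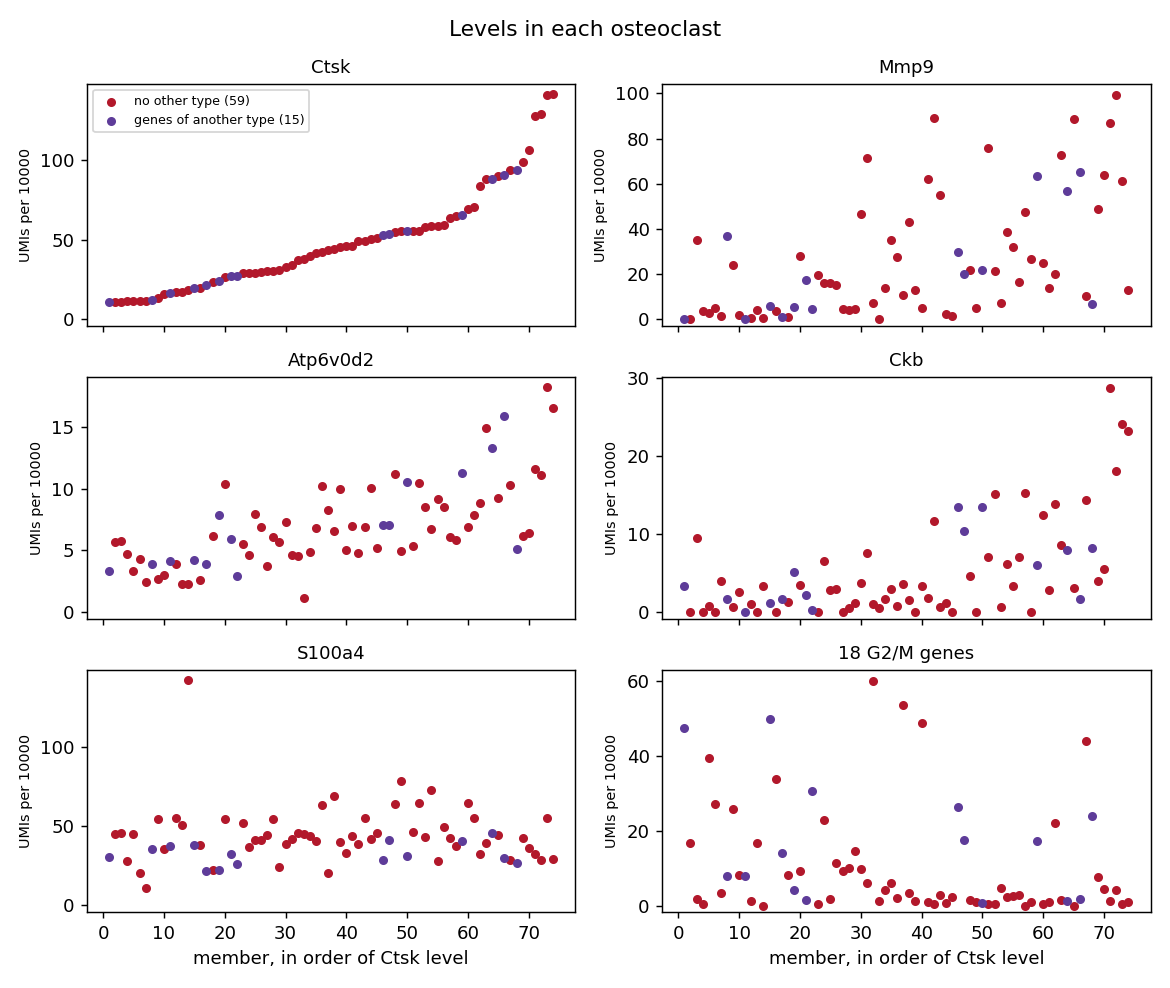
UMIs per 10000 (y axis) of *Ctsk*, *Mmp9*, *Atp6v0d2*, *Ckb*, *S100a4* and the sum of 18 G2/M genes in each of the 74 osteoclasts, placed in order of *Ctsk* (x axis). The 15 mixed barcodes are in purple and the other 59 in red. *Mmp9*, *Atp6v0d2* and *Ckb* climb to the right, *S100a4* stays level, and G2/M sums of at least 5 are more frequent in the low group (16 of 25) than in the high group (5 of 24).

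By rank correlation with *Ctsk* over the 74 barcodes, among 1423 genes at 100 CPM or more, the most alike were *Uqcr10* (Spearman 0.77), *Chchd10* (0.74), *Atp6v0d2* (0.71), *Scand1* (0.69), *Npc2* (0.68) and *Acp5* (0.68). *Uqcr10* encodes a subunit of respiratory complex III, and 6 of the 15 most alike genes were nuclear oxidative phosphorylation genes, which made up 74 of the 1423 genes ranked (5.20%). The summed oxidative phosphorylation level had a median of 368, 455 and 539 UMIs per 10000 in the low, middle and high groups, and its rank correlation with *Ctsk* was 0.76. It also ran with the mitochondrial share (0.50), as did *Ctsk* (0.58), and the part of that share in these relations was not tested. The least alike were *Snrpb* (-0.62), *Npm1* (-0.62), *Nasp* (-0.61) and *Ptma* (-0.60), genes of splicing, ribosome assembly and chromatin. *Mmp9* stood at 0.60, *Nfatc1* at 0.37 and *S100a4* at 0.07, and total UMIs at 0.01. All these points share 1 library, and the values are descriptions.

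Cell-cycle genes were present in a large part of the group. G2/M genes summed to at least 5 UMIs per 10000 in 33 of 74 osteoclasts (44.6%, 33.0% to 56.6%), S-phase genes in 38 (51.4%), and both in 29. The G2/M share was 40% in macrophages and 53.2% in monocytes, and the S-phase share 59% and 57.7%. In the osteoclasts, the G2/M sum ran from 0 to 60.0 with a median of 4.15. 17 osteoclasts were under 1, 15 were at or over 20, and only 5 lay between 4 and 6. At 5000 UMIs, *Top2a*, a mitotic topoisomerase gene, was found in 28.4% of osteoclasts, 27.8% of macrophages and 36.5% of monocytes, and *Mki67* in 29.7%, 32.3% and 36.5%, against 83.0% of B cells for each. None of the 18 G2/M or 16 S-phase genes compared differed 2-fold from macrophages (the counts against monocytes stand above), although without the mixed barcodes 2 S-phase genes were lower, *Pcna* (log2 ratio -1.06) and *Uhrf1* (-1.13). Free RNA from dividing cells of the marrow can add such UMIs to any barcode, and its part was not tested.

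The cycle genes and *Ctsk* stood in opposite order. G2/M sums of at least 5 were found in 16 of 25, 12 of 25 and 5 of 24 osteoclasts of the low, middle and high groups, and in 13 of 20, 7 of 20 and 3 of 19 when the mixed barcodes were left out. *Top2a* was at 248, 160 and 79.6 CPM in the low, middle and high groups. Of the lists, 14 of 16 S-phase genes and 12 of 16 G2/M genes compared were at least 2-fold lower in the high than in the low group. The 33 osteoclasts with a G2/M sum of at least 5 held *Mmp9* at 1582 CPM, *Atp6v0d2* at 556 and *Dcstamp* at 75.7, against 3487, 834 and 154 in the other 41. Their median *Ctsk* was 29.4 against 55.1 UMIs per 10000. Their barcodes were deeper, with a median of 31147 against 24903 UMIs. Mixed barcodes were more frequent among them, since 10 of the 15 mixed barcodes and 23 of the other 59 had such a sum. Of 5750 genes compared between the 33 and the other 41, 274 were at least 2-fold higher in the 33 (4.77%) and 36 lower (0.63%). All 7 erythroid markers were higher in them (*Hbb-bs* at 10239.7 against 181 CPM), as were 5 of 7 neutrophil markers compared. Of 8 macrophage markers compared, 4 were lower in them. Without the mixed barcodes, *Hbb-bs* was at 183 against 176 CPM, *Mmp9* at 1602 against 3492, *Atp6v0d2* at 570.4 against 791 and *Dcstamp* at 76.1 against 158, in 23 and 36 osteoclasts.

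Clustering of the 74 gave 2 groups along the same line. The first, of 45 barcodes, held 7 with a G2/M sum of at least 5, a median *Ctsk* of 53.2 and *Mmp9* at 3715 CPM. The second, of 29 barcodes, held 26 with such a sum, a median *Ctsk* of 26.7 and *Mmp9* at 1123 CPM. Their 5 leading genes by fold were not osteoclast genes. The first was led by the neutrophil genes *Camp*, *S100a8*, *S100a9* and *Ngp* and the chemokine gene *Cxcl2*, and the second by the haemoglobin genes *Hbb-bs*, *Hbb-bt*, *Hba-a1* and *Hba-a2* and by *Gdf15*. The mixed barcodes carried 85.1% or more of the UMIs of each of these neutrophil genes, 94.5% or more of those of each haemoglobin gene and 96 of the 97 UMIs of *Gdf15*, but 51.2% of those of *Cxcl2*. Also among the 10 leading genes were *Mmp9* in the first group and *Top2a*, *Rrm2*, *Cenpf* and *Mki67* in the second, of which the mixed barcodes carried 20.3% and between 33.0% and 44.8% of the UMIs. Neither group was named.

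The lineage reporter was close to background. WPRE, the 3′ element of the reporter transcript, had 49 UMIs in 14 of the 74 osteoclasts (23.1 CPM), against 33.2 CPM in macrophages, 29.0 in monocytes, 17.3 in B cells and 131 in all other kept barcodes. 1 osteoclast held more than 14 WPRE UMIs, with 21, and it also held 15.6 *Cxcl12* UMIs per 10000. In the 59 left without the mixed barcodes the highest barcode held 3 WPRE UMIs, and tdTomato itself had none in any of the 74. The engineered genes were also scarce, with 4 UMIs of *Irx3*, 1 of *Irx5* and 19 of *Col10a1* over the 74 osteoclasts.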

How the data were processed

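The scRNAseq library at postnatal day 6 was analysed, and the older library of the study was not analysed here. The values are UMI counts per gene and barcode as deposited by the authors, without normalization. Per the labels' processing notes, Cell Ranger 3.1.0 and Seurat 3 were used with mm10, and the paper's methods add the reporter sequences to the genome. The release of the gene annotation they counted on is not stated in any source read here. The deposited count matrix of 98 exogenous sequences was joined by barcode. Of 31053 gene identifiers, 30934 matched GENCODE M21 on GRCm38, which gave coordinates. No column of another series was present (0).

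The 74 osteoclasts hold 2118677 UMIs, the 200 macrophages 3219914 and the 265 monocytes 3271203. UMIs were summed per group and scaled to CPM, 10 CPM were added before log2, and genes at 20 CPM or more in either group were compared. A 2-fold difference was counted. Intervals are 95% exact Poisson or Clopper-Pearson and cover counting error only. Shares with a UMI were taken after thinning each barcode to 5000 UMIs, which left out 0 osteoclasts, 2 macrophages, 5 monocytes, 135 B cells and 0 erythroid cells. Doublets were searched with Scrublet in scanpy 1.11.5 (expected rate 10%), and none was removed. Osteoclasts were clustered by Leiden at resolution 0.5 on 15 neighbours, 15 components and 1000 variable genes. Python 3.11.15, numpy 2.4.6, scipy 1.17.1, pandas 2.3.3 and matplotlib 3.10.9 were used with seed 1, and the summing and ratios were tested on simulated data.

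Named genes were those of 13 role lists and 12 lists of markers of other cells, the 10 highest and 10 lowest by log2 ratio at 100 CPM or more in either group, the reporter and engineered genes, and the 5 leading genes of each cluster. The cells and lists were chosen with earlier results of these data known. Genes that follow *Ctsk*, oxidative phosphorylation genes and *Bdh2* beside *Slc9b2* were looked at after values were seen. Alternatives tried were other limits of the rule, filters, added CPM, thinning to 2000 UMIs, means over cells, and leaving out doublets or mixed barcodes.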

Additional observations from a re-analysis of the deposited data

Results flagged for a closer look

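Signal of the rule genes appeared in 15 barcodes that were left out for their mitochondrial share alone (median 14.9%). They held more of both genes than the osteoclasts kept, with a median of 167 UMIs per 10000 of *Acp5* and 152 of *Ctsk* (highest 303). Other osteoclast genes stood in the same order. Summed over the 15, *Mmp9* was at 13658 CPM against 2537 in the 74, *Ckb* at 4873 against 547, *Mt3* at 809.7 against 37.3, *Itgb3* at 222 against 26.4, *Ocstamp* at 417 against 97.2 and *Dcstamp* at 429 against 115. *Top2a* was at 33.5 against 165 CPM, 2 of the 15 had a G2/M sum of at least 5 UMIs per 10000, and *C1qa* had no UMI. Their median depth was 21100 UMIs. The cause of the high mitochondrial share was not tested.

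Signal also appeared in 75 kept barcodes that met the *Acp5* minimum and both collagen limits but missed the *Ctsk* minimum. Their median was 17.3 UMIs per 10000 for *Acp5* and 0 for *Ctsk*. Their *Acp5* level kept them out of the macrophage and monocyte groups used above. The tissue macrophage genes were present, since 40 of the 75 had a C1q sum of at least 5 per 10000, *C1qa* was at 732 CPM and *Lyz2* at 2055. *Atp6v0d2* (194 CPM), *Mmp9* (222), *Nfatc1* (181) and *Dcstamp* (13) lay between the levels of macrophages and osteoclasts, while *Ckb* at 114 CPM was below the 160 of macrophages. G2/M sums of at least 5 were found in 38 of them. Whether they are precursors, macrophages or mixed barcodes was not tested.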

How the results depend on the processing

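The main counts and shares moved under few of the alternatives. With at most 5% mitochondrial UMIs, 17 osteoclasts were left in place of 74, 526 in place of 333 genes were higher than in macrophages, 11.8% in place of 4.05% had C1q and 64.7% in place of 44.6% had a G2/M sum of at least 5. With at least 50 CPM required, 456 in place of 712 genes were lower than in macrophages and 471 in place of 717 higher than in monocytes, since fewer genes were compared. Leaving out the 15 mixed barcodes, an alternative chosen after seeing the data, took the C1q share to 0% by construction. The causes of the other moves were not tested. The remaining 85 alternative values of these results stayed within 1.5 times the main count or within its interval, and for single genes 747 values stayed, 202 moved and 3 called log2 ratios over macrophages changed sign. These were *Itgb3* (-0.36) and *Igf1* (0.33) at 5% mitochondrial UMIs and *Cxcl12* (-1.19) without the mixed barcodes. Other limits gave 85 osteoclasts at 20% mitochondrial UMIs, 78 at 5 and 55 at 20 UMIs per 10000 of each gene, and 73 at under 10 of each collagen. Leaving out a sequencing entry was not possible, because the 4 entries were counted together. No paired analysis was possible because the entries are 1 library and no result comes from a test. Depth limits scarce genes such as *Dcstamp*, *Ocstamp*, *Oscar*, *Itgb3* and *Mt3* in single barcodes.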
